A study of Homo sapiens with 6 samples.

Results

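The nuclear oxidative phosphorylation subunits are the proteins of the respiratory chain and ATP synthase whose genes lie in the nucleus. Their genes were chosen by symbol: the NDUF genes of complex I, the SDH genes of complex II, the UQCR genes and CYC1 of complex III, the COX4I to COX8 genes of complex IV and the ATP5F1, ATP5M and ATP5P genes of complex V. Of 62260 genes measured, 88 were protein-coding and matched these names. Of these, 81 had 10 or more reads in at least 3 of the 6 libraries, and all 81 entered the test of differential expression. They comprised 37 genes of complex I, 4 of complex II, 9 of complex III, 13 of complex IV and 18 of complex V. NDUFA4, which carries a complex I name, was counted with complex IV, of which it is a subunit. The count for complex V includes the readthrough gene ATP5MF-PTCD1.

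RNA was sequenced from TYK-nu, an established human ovarian cancer cell line, in 3 libraries of unmodified cells (WT) and 3 libraries of cells in which ZNFX1, a helicase-family protein that binds double-stranded RNA, was knocked out (ZNFX1 KO). No drug was given to either group, both were grown in the same medium, and the labels put all libraries in 1 batch. How the knockout was made, and whether the KO libraries come from 1 clone or several, is not given in the sources used here. The labels name biological replicates without saying what was separate between them, so the p-values speak of the spread among these 6 cultures only.

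Oxidative phosphorylation couples electron transfer to ATP synthesis across the inner mitochondrial membrane. Complex I takes electrons from NADH and complex II from succinate, complex III passes them from quinol to cytochrome c, complex IV passes them to oxygen, and complex V makes ATP with the proton gradient that complexes I, III and IV build up. Apart from complex II, each complex is assembled from subunits encoded in the nucleus together with subunits encoded in mitochondrial DNA, so the RNAs of a complex come from separate genomes.

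Estimated counts summed over all rows lay between 21413002 and 23494771 a library, of which 19115530 to 21036063 stood in gene rows. The number of fragments sequenced is not given in the sources used here. ZNFX1 itself was at 130, 208 and 109 CPM (counts scaled to library size) in WT libraries 1, 2 and 3, and at 103, 70.5 and 75.1 CPM in ZNFX1 KO libraries 1, 2 and 3. The KO libraries were all lower, with a mean of 82.8 ± 17.3 CPM against 149 ± 52.2 CPM (SD, n = 3 each), and ZNFX1 RNA was still detected in each of them. The log2 fold change was -0.85 (SE 0.27, adjusted p = 0.218, edgeR), and for CPM the exact permutation p, two-sided, was 0.1, which no 3 against 3 comparison can go below. Over 20 alternative settings the adjusted p of ZNFX1 ranged from 0.0468 to 0.553 (edgeR, DESeq2 or limma), and it passed the threshold in 1, without WT library 3. Among ovarian carcinoma markers 4 of 10 were abundant enough to test, and 0 passed, where 0.727% of all genes tested did. VIM had 4153 ± 1045 and 4045 ± 1174 CPM in WT and KO, and WT1 at 5.23 ± 1.64 and 5.81 ± 1.14 CPM. KRT18 was higher in KO without overlap, at 103 ± 18.0 and 151 ± 32.3 CPM (log2 fold change 0.55), and KRT8 was at 24.4 ± 12.9 and 14.7 ± 4.72 CPM (log2 fold change -0.73). EPCAM was at 1.58, 1.71 and 0.242 CPM in WT and had no read in KO, and PAX8, MUC16, MSLN, KRT7 and CDH2 were at or near 0 in both groups. The part of such marker differences in the results on the subunits was not tested. Markers of muscle and of testis, where tissue-specific subunit genes are used, summed to at most 0.205 CPM and 0.0511 CPM in any library.

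Subunit genes with a tissue-specific counterpart were represented almost wholly by the ubiquitous form. No read was assigned to COX4I2, COX6A2, COX7A1 or COX7B2 in any library, which allows at most 3 reads, or 0.137 to 0.156 CPM, per library. The testis-type COX8C had 1 read in a single WT library, and ATP5MGL and UQCRHL had at most 3 and 5.14 reads in a library. Compared on the TPM scale, which corrects for transcript length and library size, the testis-type COX6B2 had a mean level of 0.244 TPM over 6 libraries against 165 TPM for COX6B1. COX6B2 held between 5.29 and 15.9 reads a library, and was the member with the lowest TPM to pass the filter. These 7 genes that did not pass the filter are not counted further.

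Levels per length differed widely between subunits of the same complex. Median TPM was 61.5 for complex I, 53.8 for complex II, 77.7 for complex III, 93.5 for complex IV and 83.4 for complex V. The highest gene of each complex was NDUFA1 at 166 TPM, SDHB at 71.4 TPM, UQCRH at 287 TPM, COX8A at 335 TPM and ATP5MF at 391 TPM. All of these but SDHB, an iron-sulphur subunit, encode small subunits without a redox centre. Within complex III, UQCRFS1, the Rieske iron-sulphur protein, was lowest at 14.1 TPM. Of the 3 genes that encode the same mature c subunit of the ATP synthase rotor, ATP5MC2 was at 249 TPM, ATP5MC3 at 84.9 TPM and ATP5MC1 at 69.0 TPM. A level can understate a gene, because part of the deposited reads stand in rows of single transcripts. The gene row held at least 90% of the reads of 61 members, and under 50% for ATP5PB, NDUFC1, COX6C, UQCRB, NDUFB5 and NDUFV3.

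**Figure D1:**
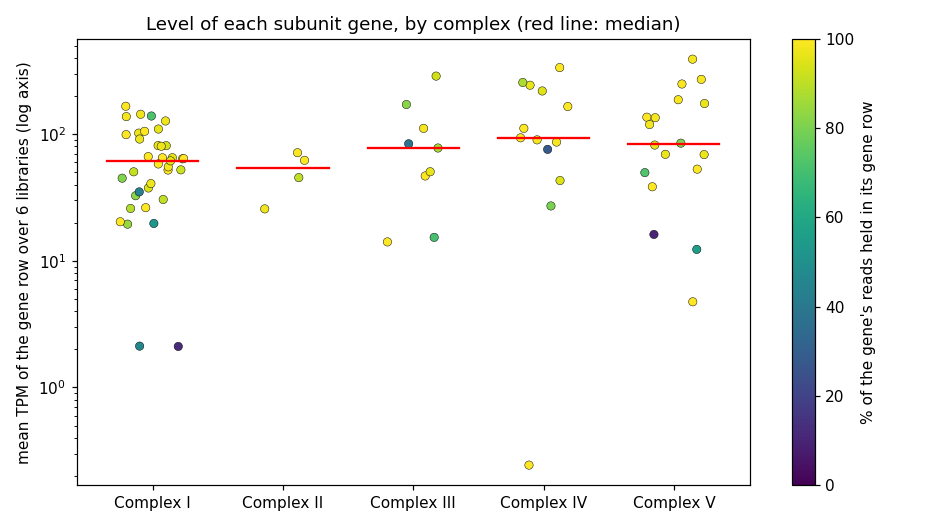
Mean TPM of the gene row over 6 libraries (vertical axis, log scale) for the 81 tested subunit genes by complex, coloured by the percentage of the gene's reads that stand in its gene row. Red lines are medians, from 53.8 TPM for complex II to 93.5 TPM for complex IV, and the single low point of complex IV is COX6B2 at 0.244 TPM.

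Promoters of these genes are known for sites of NRF1, of ETS-family factors such as GABP, and of YY1. RefSeq promoter windows of 250 bases before to 50 after the start (GRCh38.p14) were found for 66 of the 81 genes. Searched on both strands, the NRF1 half-site TGCGCA was in 19 of 66 windows (28.8%) against 10.8% of 15843 protein-coding promoters, and the ETS core CCGGAAG in 20 (30.3%) against 14.2%. The YY1 core AAGATGG was in 16 (24.2%) against 6.40%, and the Sp1 box GGGCGG in 41 (62.1%) against 58.5%. None of these motifs contains another. At least 1 of the NRF1, ETS and YY1 motifs was in 38 windows (57.6%), against 27.2% of all promoters. Members with and without the NRF1 half-site had median log2 fold changes of 0.12 and 0.18 in ZNFX1 KO against WT, those with and without the ETS core 0.13 and 0.17, those with and without the YY1 core 0.14 and 0.17, and those with and without the Sp1 box 0.15 and 0.24. A match describes the letters in a window and is not a measured binding site. The 250 bases before the start follow for the members at the ends of the fold-change range that had a window, NDUFV2 and NDUFS6 at the upper end and COX6A1 and COX7B at the lower end, 5′ to 3′ on the gene's strand, with matches to the NRF1, ETS and YY1 motifs in capitals. They lie at chr18:9102449-9102698, chr5:1801157-1801406, chr12:120437863-120438112 and chrX:77899218-77899467, all on the plus strand. The start meant is that of RefSeq. In all of these genes it lies after the GENCODE 29 start given below, so the last bases of each stretch lie within the GENCODE gene.
NDUFV2: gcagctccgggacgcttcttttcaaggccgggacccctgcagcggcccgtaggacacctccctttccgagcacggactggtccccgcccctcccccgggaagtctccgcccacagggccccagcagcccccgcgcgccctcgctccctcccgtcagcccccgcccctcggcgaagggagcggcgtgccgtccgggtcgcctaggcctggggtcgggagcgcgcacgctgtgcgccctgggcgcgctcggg
NDUFS6: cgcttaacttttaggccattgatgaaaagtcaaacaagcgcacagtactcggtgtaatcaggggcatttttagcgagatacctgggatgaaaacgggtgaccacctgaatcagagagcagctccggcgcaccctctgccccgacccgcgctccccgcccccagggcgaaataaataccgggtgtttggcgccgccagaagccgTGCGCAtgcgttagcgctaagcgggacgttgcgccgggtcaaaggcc
COX6A1: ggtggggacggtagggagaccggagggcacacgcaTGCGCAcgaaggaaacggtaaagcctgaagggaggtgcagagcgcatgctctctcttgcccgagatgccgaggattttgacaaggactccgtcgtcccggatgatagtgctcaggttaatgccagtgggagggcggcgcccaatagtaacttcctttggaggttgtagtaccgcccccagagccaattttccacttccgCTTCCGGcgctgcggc
COX7B: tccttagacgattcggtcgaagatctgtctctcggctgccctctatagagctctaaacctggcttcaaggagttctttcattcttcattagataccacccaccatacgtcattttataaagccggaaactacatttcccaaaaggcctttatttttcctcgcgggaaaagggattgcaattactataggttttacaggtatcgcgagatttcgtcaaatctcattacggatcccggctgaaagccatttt
The promoters of NDUFV2 and COX7B, which lie at opposite ends of the range, held no match to the NRF1, ETS or YY1 motif. Those of NDUFS6 and COX6A1, also at opposite ends, both held the NRF1 half-site, and that of COX6A1 also held the ETS core, read on the minus strand.

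No nuclear subunit gene passed the test between ZNFX1 KO and WT, and few of all genes did. The test was edgeR's quasi-likelihood test with Benjamini-Hochberg adjustment over 14166 genes. An adjusted p at or under 0.05 was found for 0 of 81 members. It was found for 103 of all genes (0.727%), 0.268% higher and 0.459% lower in KO, so the 0 lies near the share of all genes. An unadjusted p under 0.05 was reached by 3 members (NDUFV2, NDUFA3 and NDUFS6), against 15.1% of all genes. DESeq2 called 1 member, NDUFV2, where it called 4.09% of all genes. With limma 0 members were called on voom values, where 76 of 14166 genes were. On log2(TPM + 1) it called 0 members and 22 of all genes, so both zeros lie near the share of all genes. KO and WT values did not overlap for 7 members (8.64%), against 20.2% of all genes. These were NDUFV2, NDUFA3, NDUFB1 and SDHC, higher in KO, and COX4I1, COX6A1 and ATP5MF-PTCD1, lower in KO. NDUFB1 and ATP5MF-PTCD1, like NDUFS6, NDUFC1, SDHD and ATP5F1D, were singled out after their values were seen. Over all genes 9.39% were higher and 10.8% lower without overlap.

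Most members nevertheless lay on the same side of 0. A log2 fold change above 0 was found for 56 of 81 members, against 48.8% of all genes, and the members' median was 0.15 against -0.01 for all genes. With library totals in place of TMM scaling 53 of 81 were above 0, with medians of 0.09 and -0.08. Values ran from -0.54 for COX6A1 to 0.86 for NDUFV2, and 5 of 81 members were beyond 0.5 in size, against 3711 of 14166 genes. For 73 of 81 members the 95% interval lay between -1 and 1, so that a doubling or a halving is outside the interval for them. Over all genes the interval lay between these limits for 8179 of 14166. In bulk RNA, a different share of cells that express these genes and a different amount of RNA per cell cannot be told apart.

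**Figure D2:**
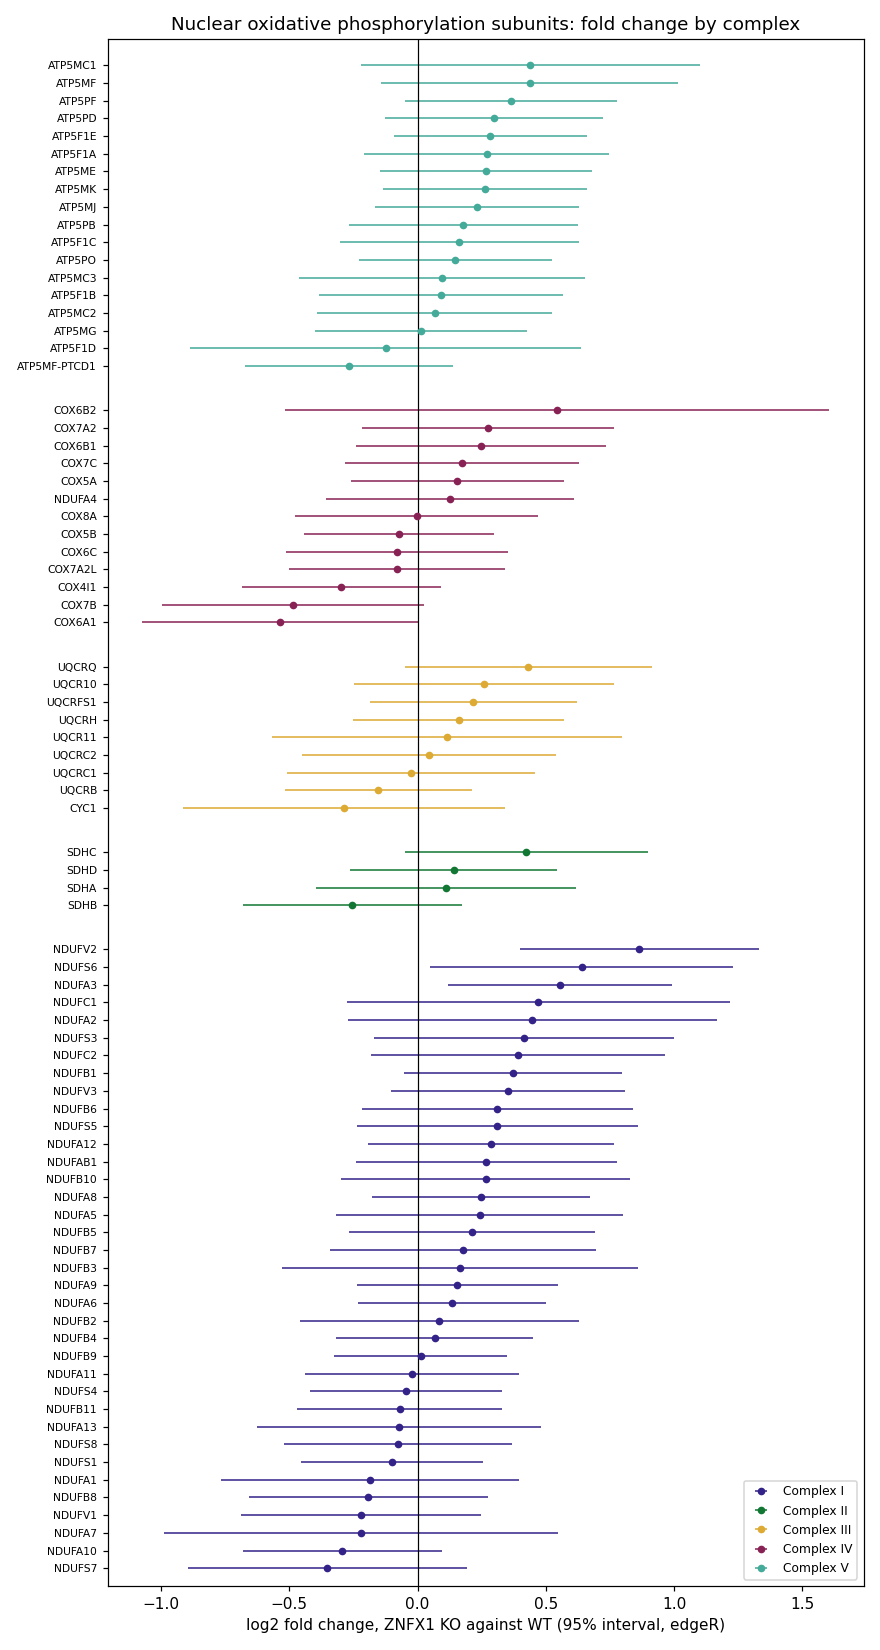
Log2 fold change of ZNFX1 KO against WT (horizontal axis, edgeR) for the tested subunit genes but 1, ordered within complexes, with 95% intervals as bars. Most intervals include 0, the medians of complexes I and V are 0.17 and 0.21, and NDUFV2 stands at the upper end with 0.86.

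The members' levels also differed between libraries of the same group. Relative to each gene's mean over the 6 libraries, the median member was at 0.01, -0.29 and 0.09 (log2) in WT libraries 1, 2 and 3, and at 0.24, -0.13 and 0.13 in KO libraries 1, 2 and 3. The median of all genes stayed between -0.00 and 0.03. WT library 2 was thus the lowest and KO library 1 the highest, and KO library 2 lay below WT libraries 1 and 3. WT library 2 held the lowest value of 46 members (27.0% of all genes), KO library 2 that of 24 (19.6%), and KO library 1 the highest value of 38 (14.5%). Without WT library 2 the members' median was 0.05, with 48 of 81 above 0, and without KO library 2 it was 0.23, with 67 above 0. Summed over members, RNA was at 7303, 5765 and 7415 CPM in WT and at 8123, 6211 and 7456 CPM in KO, or 6828 ± 922 against 7263 ± 970 CPM (SD, n = 3 each). The sums overlap, and the groups differ by less than the spread within them.

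**Figure D3:**
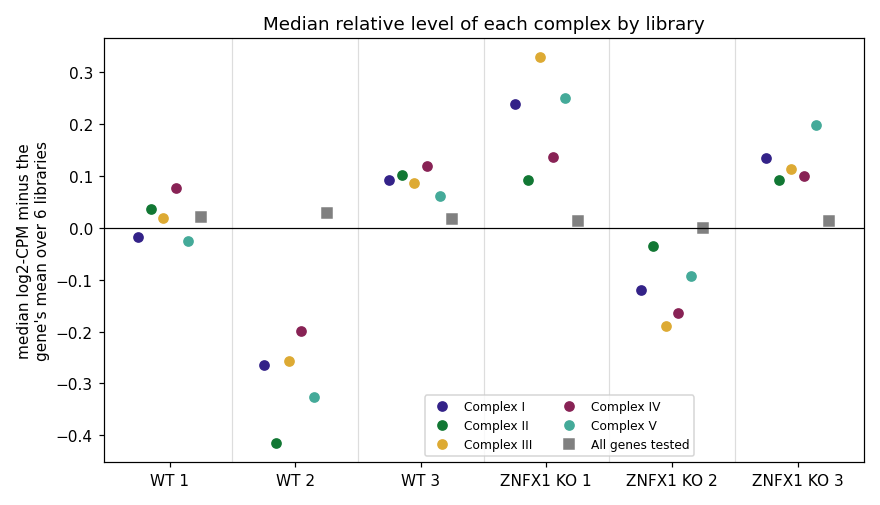
Median over the members of each complex, and over all genes tested, of log2-CPM minus the gene's mean over 6 libraries (vertical axis), for each library. WT library 2 and KO library 2 lie below 0 for all 5 complexes, complex II reaching -0.41 in WT library 2, while the median of all genes stays within 0.03 of 0.

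Complex I had a median log2 fold change of 0.17, with 25 of 37 genes above 0. Its 7 nuclear catalytic core subunits had a median of -0.08, with 3 above 0, and its 30 accessory subunits a median of 0.20, with 22 above 0. These values leave out the rows of single transcripts. With those rows joined, the value of NDUFC1, whose gene row held 12.3% of its reads, went from 0.47 to 0.09. The median of all members went from 0.15 to 0.14, with 57 of 81 above 0. The gene furthest from 0 was NDUFV2 (ENSG00000178127.13, chr18:9102630-9134345, plus strand), an iron-sulphur subunit of the NADH-oxidising module. It was at 63.4, 45.9 and 72.5 CPM in WT and at 124, 101 and 106 CPM in KO. Every KO library was above every WT library, with means of 60.6 ± 13.5 and 110 ± 12.1 CPM. The log2 fold change was 0.86 (SE 0.20, 95% interval 0.40 to 1.33, adjusted p = 0.118, edgeR). Over 20 alternative settings its adjusted p ranged from 0.00738 to 0.400 (edgeR, DESeq2 or limma), and it passed in 3 of them. These were DESeq2 at 0.00738, without WT library 3 at 0.0285 (edgeR), and without a filter on low counts at 0.0301 (edgeR). All 3 settings called more of all genes: 4.09% with DESeq2 and 9.02% without WT library 3. Without a filter 602 genes were called, against 103 in the main test. The processed pseudogene of NDUFV2, NDUFV2P1, held 1.40% of the reads of both.

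The other subunits of the same module that bear redox centres, NDUFV1 and NDUFS1, had values below 0. NDUFV1, the flavin-bearing subunit that it contacts, was at 139, 99.99 and 116 CPM in WT and 103, 81.2 and 120 CPM in KO, with a log2 fold change of -0.22 (SE 0.21, adjusted p = 0.616, edgeR). NDUFS1, the largest iron-sulphur subunit of the same module, was at 181, 162 and 191 CPM in WT and 159, 167 and 172 CPM in KO (log2 fold change -0.10, SE 0.16, adjusted p = 0.778, edgeR). Both overlapped between groups. On the per-length scale the 3 subunits stood at 53.9 ± 10.7, 57.1 ± 20.4 and 42.5 ± 8.40 TPM in WT for NDUFV1, NDUFV2 and NDUFS1. In KO they stood at 46.9 ± 6.81, 103 ± 5.48 and 38.9 ± 3.82 TPM. Exons of NDUFS1 overlap EEF1B2 on the opposite strand, which was at a mean of 581 CPM, against 178 CPM for NDUFS1 in WT. Whether the counting used strand is not given in the sources used here.

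Accessory subunits of complex I included the other members with an unadjusted p under 0.05. NDUFA3 (chr19:54102728-54109257), a small membrane-arm subunit, was at 38.2, 28.3 and 37.5 CPM in WT and 55.9, 42.7 and 54.1 CPM in KO. The groups did not overlap, and the log2 fold change was 0.55 (SE 0.19, 95% interval 0.12 to 0.99, adjusted p = 0.253, edgeR). Its gene row held 71.6% of its reads, and its exons overlap TFPT on the opposite strand, which was at a mean of 24.6 CPM. NDUFS6 (chr5:1801400-1816605), a zinc-binding subunit at the NADH-oxidising module, was at 40.0, 27.6 and 57.7 CPM in WT and 69.3, 57.7 and 68.3 CPM in KO. WT library 3 and KO library 2 met at the same value. Its log2 fold change was 0.64 (SE 0.26, adjusted p = 0.305, edgeR), and it passed in 1 of 20 alternatives, without WT library 3 (adjusted p = 0.0356, edgeR), where 9.02% of all genes passed. NDUFB1, another small membrane-arm subunit, was at 23.2, 19.4 and 28.1 CPM in WT and 31.5, 28.5 and 31.4 CPM in KO (log2 fold change 0.37, SE 0.19, adjusted p = 0.384, edgeR). NDUFA1, the most abundant complex I RNA per length, was at 63.4, 58.7 and 86.9 CPM in WT and 83.0, 45.7 and 55.3 CPM in KO. KO library 1 and the WT libraries overlapped, and the log2 fold change was -0.18 (SE 0.26). Exons of NDUFA1 overlap RNF113A on the opposite strand, which was at a mean of 15.1 CPM.

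**Figure D4:**
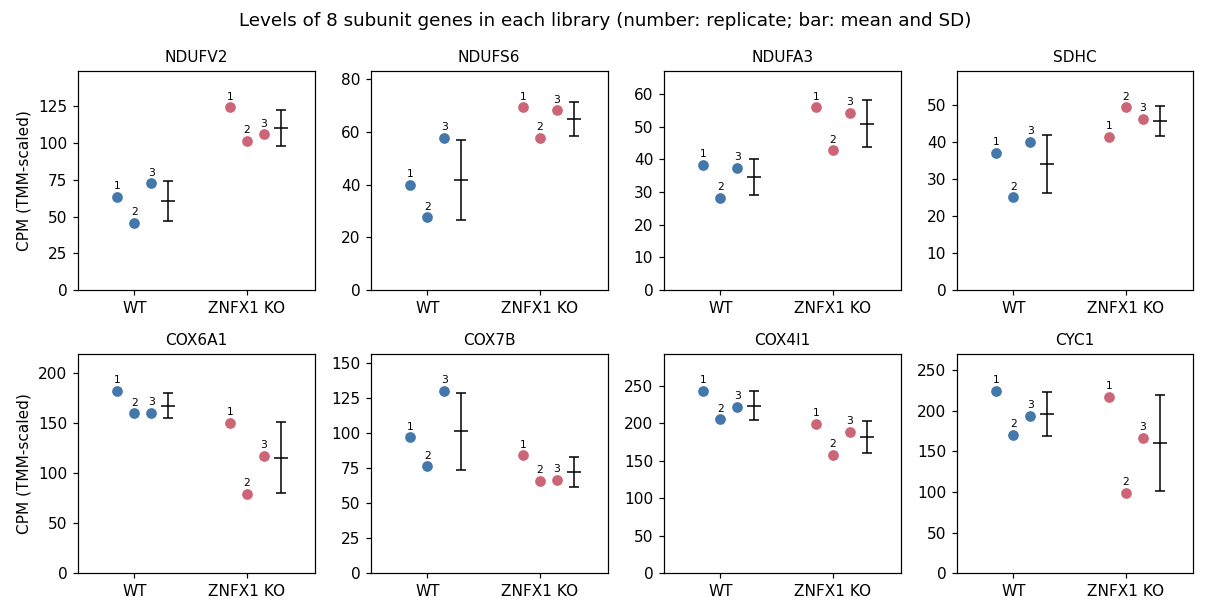
CPM (vertical axes from 0) of 8 subunit genes in each library, with the replicate number above each point and the mean and SD (n = 3) as bars. NDUFV2, NDUFA3 and SDHC lie higher in ZNFX1 KO without overlap, COX6A1 and COX4I1 lower without overlap, and NDUFS6, COX7B and CYC1 overlap.

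In complex II, which has no mitochondrially encoded subunit, both membrane anchors had values above 0 and the redox subunits lay on either side of it. SDHC, which with SDHD anchors the complex and forms its quinone site, was at 37.1, 25.1 and 40.0 CPM in WT and 41.5, 49.4 and 46.4 CPM in KO. The KO libraries were all higher, but the gap to WT library 3 was small, and the log2 fold change was 0.42 (SE 0.21, 95% interval -0.05 to 0.90, adjusted p = 0.374, edgeR). SDHD had a log2 fold change of 0.14. SDHB, the iron-sulphur subunit, was at 99.01, 85.9 and 117 CPM in WT and 97.8, 73.2 and 81.9 CPM in KO (log2 fold change -0.25, SE 0.19, adjusted p = 0.534, edgeR). SDHA, the flavoprotein that oxidises succinate, was at 173, 101 and 137 CPM in WT and 166, 128 and 150 CPM in KO (log2 fold change 0.11, SE 0.22). The groups overlapped for SDHB and SDHA, and rows named as pseudogenes of SDHA held 8.82% of the reads of both, so the level of SDHA is uncertain by how reads were split.

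Complex III had a median log2 fold change of 0.12, with 6 of 9 genes above 0 and 0 without overlap. CYC1, the haem-bearing cytochrome c1, was at 225, 170 and 194 CPM in WT and 217, 99.3 and 166 CPM in KO. KO library 2 was low and the other KO libraries lay within or next to the WT range, with a log2 fold change of -0.29 (SE 0.28, adjusted p = 0.629, edgeR). UQCRFS1 was at 59.0, 48.4 and 68.5 CPM in WT and 73.7, 63.0 and 68.0 CPM in KO (log2 fold change 0.22, SE 0.18). UQCRQ, a small subunit bound to cytochrome b, was at 71.6, 55.7 and 79.5 CPM in WT and 111, 73.1 and 94.98 CPM in KO (log2 fold change 0.43, SE 0.21, adjusted p = 0.375, edgeR). The hinge protein UQCRH was at 166, 137 and 165 CPM in WT and 193, 145 and 185 CPM in KO (log2 fold change 0.16, SE 0.18). For both small subunits KO library 2 lay among the WT libraries.

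Complex IV was the complex with the lowest median, -0.00, with 6 of 13 genes above 0, and it held the members with the lowest fold changes. Its median was 0.0060 with DESeq2's size factors and -0.06 with library totals, so it has no firm sign. COX6A1 (ENSG00000111775.3, chr12:120438090-120440742, plus strand), the ubiquitous form of subunit VIa, was at 182, 159 and 160 CPM in WT and 150, 79.1 and 117 CPM in KO. All KO libraries were lower, KO library 2 the most, with means of 167 ± 12.9 and 115 ± 35.6 CPM. The log2 fold change was -0.54 (SE 0.24, 95% interval -1.07 to 0.00, adjusted p = 0.332, edgeR), and the adjusted p ranged from 0.207 to 0.640 over 20 alternatives. COX7B (chrX:77899438-77907373), a small membrane subunit, was at 97.0, 76.2 and 130 CPM in WT and 84.2, 65.8 and 66.5 CPM in KO. KO library 1 lay above WT library 2, and the log2 fold change was -0.49 (SE 0.22, adjusted p = 0.349, edgeR). COX4I1, the ubiquitous form of subunit IV, was at 244, 205 and 222 CPM in WT and 200, 158 and 188 CPM in KO. The groups did not overlap, and the log2 fold change was -0.30 (SE 0.17, 95% interval -0.68 to 0.09, adjusted p = 0.429, edgeR). Exons of COX4I1 overlap EMC8 on the opposite strand. EMC8 was at 31.1, 28.8 and 32.0 CPM in WT and 24.7, 22.0 and 27.6 CPM in KO.

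The other complex IV genes with an alternative form lay closer to 0 or were measured poorly. COX8A, the most abundant per length, had 171 ± 20.9 CPM in WT and 171 ± 37.3 CPM in KO (log2 fold change -0.00, 95% interval -0.48 to 0.47). COX7A2 had 37.5 ± 8.60 and 45.4 ± 6.52 CPM (log2 fold change 0.27, SE 0.22). COX7A2L, its relative that joins complexes III and IV into supercomplexes, had 91.1 ± 17.3 and 86.1 ± 5.77 CPM (log2 fold change -0.08, SE 0.19). COX6B1, on the outer face of the complex, had 75.8 ± 10.2 and 89.9 ± 21.3 CPM (log2 fold change 0.25, SE 0.21). COX6B2 had 0.437 ± 0.147 and 0.646 ± 0.190 CPM, and its 95% interval, from -0.52 to 1.605, covers changes in either direction. Summed over the complex, RNA came to 1323 ± 143 CPM in WT and 1251 ± 190 CPM in KO, or 94.6% of WT, within the spread of the libraries.

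Complex V had a median log2 fold change of 0.21, with 16 of 18 genes above 0, the exceptions being ATP5F1D and ATP5MF-PTCD1. Its summed RNA came to 2245 ± 362 CPM in WT and 2555 ± 321 CPM in KO (SD, n = 3 each), or 114% of WT, a difference smaller than the SD of WT. Of the catalytic head, ATP5F1A (subunit alpha) was at 516, 351 and 538 CPM in WT and 611, 500 and 581 CPM in KO (log2 fold change 0.27, SE 0.21, adjusted p = 0.553, edgeR). ATP5F1B, the catalytic subunit beta, was at 710, 513 and 718 CPM in WT and 794, 575 and 697 CPM in KO (log2 fold change 0.09, SE 0.21). WT library 2 was the lowest value of both genes, and the groups overlapped. ATP5F1E, subunit epsilon of the central stalk, had 143 ± 15.3 and 174 ± 14.1 CPM (log2 fold change 0.28, SE 0.16, adjusted p = 0.434, edgeR).

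All 4 peripheral stalk genes and all 3 c-ring genes had values above 0, with medians of 0.24 and 0.10. ATP5PF, coupling factor 6 of the stalk, was at 25.5, 24.8 and 33.0 CPM in WT and 36.5, 32.4 and 38.4 CPM in KO. WT library 3 lay above KO library 2, and the log2 fold change was 0.36 (SE 0.18, adjusted p = 0.379, edgeR). Its exons overlap those of GABPA on the opposite strand, which was at a mean of 41.5 CPM, against 27.8 CPM for ATP5PF in WT. The 3 genes for the c subunit had log2 fold changes of 0.44 (ATP5MC1, SE 0.29), 0.07 (ATP5MC2, SE 0.20) and 0.10 (ATP5MC3, SE 0.25). Per length ATP5MC2 was the highest of them in both groups, at 241 ± 18.0 TPM in WT and 257 ± 25.7 TPM in KO. ATP5MC1 and ATP5MC3 did not differ beyond their spread, at 59.4 ± 30.8 and 82.7 ± 41.1 TPM in WT and 78.5 ± 9.32 and 87.0 ± 8.58 TPM in KO. ATP5MF, a small membrane subunit, was at 105, 73.5 and 148 CPM in WT and 166, 130 and 145 CPM in KO (log2 fold change 0.44, SE 0.25, adjusted p = 0.434, edgeR). The readthrough gene ATP5MF-PTCD1, which shares its sequence, had 18.7 ± 1.00 and 15.6 ± 1.87 CPM. PTCD1, which is not a subunit gene, also overlaps exons of ATP5MF on the same strand and was at a mean of 12.7 CPM. Reads of these genes cannot be assigned with certainty.

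The subunits encoded in mitochondrial DNA were set beside the nuclear ones. All 13 had log2 fold changes above 0, from 0.02 for MT-CO3 to 1.13 for MT-ND6, with a median of 0.43. The edgeR test called 0 of 13, where it called 0.727% of all genes. With library totals in place of TMM 12 of 13 were above 0. The direction rests on KO library 2: without it 3 of 13 were above 0 and the median was -0.10. Their summed RNA was at 3656, 3280 and 5631 CPM in WT and at 3629, 6795 and 4185 CPM in KO. KO library 2, which had the second-lowest sum of nuclear subunits, had the highest sum of mitochondrial ones, while WT library 2 was lowest in both. MT-CO1, the catalytic subunit of complex IV, was at 1437, 1333 and 2246 CPM in WT and 1569, 2555 and 1775 CPM in KO (log2 fold change 0.23, SE 0.27). How far such library differences enter the fold changes of the nuclear genes was not tested.

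Assembly factors, which build the complexes without staying in them, gave no call either. Of 62 tested, 43 had a log2 fold change above 0, against 48.8% of all genes, with a median of 0.13. In either direction 0 passed the edgeR test, where 0.727% of all genes did, so 0 lies near the share of all genes. By list, 12 of 16 for complex I, 2 of 4 for complex II, 6 of 9 for complex III, 21 of 27 for complex IV and 2 of 6 for complex V were above 0. With 1 library left out, the list medians ranged from 0.05 to 0.26 for complex I and 0.01 to 0.11 for complex II. They ranged from 0.03 to 0.29 for complex III, 0.12 to 0.28 for complex IV and -0.22 to -0.01 for complex V. The complex V list held ATP5IF1, an inhibitor rather than an assembly factor, and DMAC2 (log2 fold change 0.05). DMAC2, like DMAC1 in the complex I list, is a complex I assembly factor, so the counts for complexes I and V depend on its placement. NDUFAF7, a methyltransferase needed for complex I assembly, was at 15.1, 8.94 and 11.7 CPM in WT and 26.2, 19.3 and 17.2 CPM in KO. It did not overlap between groups (log2 fold change 0.81, SE 0.25, adjusted p = 0.211, edgeR). COA6, which takes part in copper delivery to complex IV, had 22.4 ± 2.46 and 30.5 ± 3.43 CPM (log2 fold change 0.45, SE 0.18, adjusted p = 0.294, edgeR). ATP5IF1, the inhibitor of ATP hydrolysis by complex V, had 41.8 ± 1.63 and 32.7 ± 4.57 CPM, without overlap (log2 fold change -0.36, SE 0.17, adjusted p = 0.360, edgeR). SDHAF3 for complex II was near the lower limit of measurement, at 0.770 ± 0.437 and 1.54 ± 0.548 CPM (log2 fold change 1.00, SE 0.51). BCS1L, which inserts the Rieske protein, had a log2 fold change of -0.30 (SE 0.19). The factors with the highest mean CPM over the 6 libraries for complexes I to IV had values of 0.31 (ACAD9), 0.13 (SDHAF2), 0.15 (UQCC1) and 0.28 (LRPPRC) on the same scale.

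Genes that feed electrons to the chain gave 0 calls as well, where 0.727% of all genes were called. Of 18 genes for electron carriers and quinone synthesis, 8 were above 0 (median -0.01, and -0.05 to 0.07 with 1 library left out). COQ5, a methyltransferase of coenzyme Q synthesis, had the smallest p of these, at 51.6, 50.1 and 42.3 CPM in WT and 35.6, 21.4 and 25.8 CPM in KO (log2 fold change -0.80, SE 0.22, adjusted p = 0.160, edgeR). CYCS, cytochrome c itself, ranged from 91.9 to 272 CPM in WT and from 200 to 289 CPM in KO (log2 fold change 0.50, SE 0.36). Of 18 citrate cycle and pyruvate dehydrogenase genes, 14 were above 0 (median 0.24, and 0.06 without WT library 2 or 0.14 without KO library 1). IDH3G, a regulatory subunit of isocitrate dehydrogenase, lay in the other direction at 54.7, 54.0 and 46.7 CPM in WT and 41.8, 21.8 and 28.0 CPM in KO (log2 fold change -0.76, SE 0.24, adjusted p = 0.220, edgeR). MDH2, the most abundant of them, had a log2 fold change of 0.02.

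Of 13 regulators of these genes, PPARGC1A and ESRRG had no read in any library. The other 11 were tested with 0 calls, where 0.727% of all genes were called. Of these 5 were above 0, with a median of -0.05 that ranged from -0.05 to 0.13 with 1 library left out. ESRRA, a nuclear receptor that activates oxidative phosphorylation genes, was at 44.6, 49.5 and 42.4 CPM in WT and 32.0, 26.4 and 37.1 CPM in KO. All KO libraries were lower, and the log2 fold change was -0.52 (SE 0.18, adjusted p = 0.258, edgeR). MYC had a log2 fold change of -0.13 (SE 0.18).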

How the data were processed

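RNA was measured in 3 WT and 3 ZNFX1 KO libraries of TYK-nu by sequencing of stranded total RNA libraries, per the labels. Groups and replicate numbers come from the sample titles. The deposited files hold estimated counts per gene that the authors made with Salmon, per the labels, together with TPM values and effective lengths. The submitters' processing notes name FastQC, Trimmomatic, Salmon and DESeq2. Not given in the sources used here were the build, annotation release and strand setting. Each file has 197169 rows, 62260 of them genes. Rows of single transcripts held 9.93% to 10.7% of the estimated counts and did not enter the test. Columns of per-sample values not used: 0.

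Gene types and coordinates are from GENCODE 29 (GRCh38), which lists 57833 of the gene rows. Estimated counts were rounded, and 14166 genes passed edgeR's filterByExpr. Libraries were scaled by TMM (factors 0.958 to 1.04) and tested with edgeR 4.0.16 in R 4.3.3 (quasi-likelihood, two-sided, genotype only, adjustment over all genes, threshold 0.05). The SE is the ratio of the log2 fold change to the root of F. CPM values are TMM-scaled, with a prior count of 2 for log2-CPM. The procedure was tested on simulated data with doublings, halvings and larger changes, all beyond the fold change of any member. How it recovers changes of the members' size was not tested. Library pairs differed beyond sampling noise (smallest chi-square 30.4 per degree of freedom). Alternatives were other scalings, filters, DESeq2 1.42.0, limma 3.58.1, TPM scales, transcript rows joined to genes, a replicate block and each library left out.

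The members, gene lists and tests were chosen with earlier results of these data known. Members are named in full by this rule: in each complex those called, the 2 with the smallest p and the most abundant per length, then the catalytic or redox subunits and genes with an alternative form. The values of 1 gene that this rule names are not reported here. Of each other list the called genes, or else the gene with the smallest p and the most abundant, are named. Lists of leukocyte and fibroblast markers had 1 tested gene each, LYZ (1.43 ± 1.24 CPM in WT, 4.69 ± 3.00 in KO) and THY1 (log2 fold change 0.20), and muscle and testis markers 0.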

Additional observations from a re-analysis of the deposited data

How the results depend on the processing

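The count of all genes called moved most: 103 as reported, 602 without a filter, 579 with DESeq2, 187 with transcript rows joined, 22 on log2(TPM + 1), 14 with the replicate block, and 2 to 1315 with 1 library left out (24 without WT 1, 57 without WT 2, 1315 without WT 3, 2 without KO 2 and 7 without KO 3). Members called were 1 without a filter and 1 with DESeq2 (NDUFV2 both times), and 0 to 2 with 1 library left out, where 2 came without WT 3, at a background of 9.02% of genes called. With 1 library left out, median log2 fold changes ranged from 0.05 to 0.25 for all members, 0.05 to 0.28 for complex I, -0.03 to 0.24 for complex II, -0.02 to 0.29 for complex III, -0.09 to 0.18 for complex IV (0.18 without KO 2, -0.089 without KO 3) and 0.12 to 0.30 for complex V. The members' median stayed above 0 in all 20 alternatives.

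Of 579 values of named members under alternatives, 557 kept direction and side of the threshold, 3 passed it (NDUFV2, given above) and 19 changed sign. COX8A did so at 0.0060 with DESeq2 size factors and the DESeq2 test, 0.024 without a filter, 0.0076 with 10 reads in 3 libraries, 0.0082 on both TPM scales, 0.0059 with rows joined, and -0.10 to 0.18 with 1 library left out. The others did so only with 1 library left out: NDUFA1 (-0.46 to 0.024), SDHA (-0.065 to 0.32), COX7A2L (-0.21 to 0.025), ATP5F1B (-0.050 to 0.22), ATP5MC2 (-0.081 to 0.21) and ATP5MC3 (-0.10 to 0.40). The cause was not tested.

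Same-numbered WT and KO libraries had deviation correlations of 0.13, -0.04 and 0.01, so the numbers were not taken as pairs. WT 2 correlated more with KO 3 (0.04) than with KO 2. The replicate block left 14 genes and 0 members called. Depth limits COX6B2 most, at 5.29 to 15.9 reads a library, and 3 libraries a group leave a median SE of 0.21 for the members.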
